A study of Drosophila melanogaster with 5 samples.

Results

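Chemoreceptor genes encode the proteins with which a fly smells and tastes, and 114 of them had a probe on the arrays, of 10533 genes in all. They were chosen by name alone, as every gene whose symbol marks it as an odorant receptor (Or), a gustatory receptor (Gr) or an ionotropic receptor (Ir). There were 47 Or, 27 Gr and 40 Ir genes, against 180 protein-coding genes with such names in the current RefSeq table. A value was deposited for 106 of them. The remaining 8, Or13a, Or22b, Or85a, Gr93c, Ir47a, Ir48c, Ir52d and Ir75a, had no filled spot on any array. Orco and the pheromone receptor Or67d were not analysed here.

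Odorant receptors sit in the antennae and maxillary palps and form ion channels together with the shared co-receptor Orco. Gustatory receptors sense sugars, bitter compounds and carbon dioxide, mostly in the mouthparts, legs and wings. Ionotropic receptors descend from glutamate receptors, work with co-receptors such as Ir8a, Ir25a, Ir76b and Ir93a, and sense acids, amines, salts, humidity and temperature. Each receptor is usually made in a small number of sensory neurons, so its transcript is rare in RNA from a whole fly.

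RNA came from whole Drosophila melanogaster females, 14 days old, that had eaten only yeast paste for the last 48 h. The design gives 11 days before separation from males and 1 day of recovery. Experimental females lacked the insulin-producing cells (IPCs), neurosecretory cells of the brain, because the InsP3-Gal4 driver switched on UAS-RPR/HID, the cell death genes reaper and hid. Control females carried the same InsP3-Gal4 driver with UAS-LacZ in place of the death genes, so both groups share the driver. Both RNAs were hybridised to 5 two-colour arrays from 2 biological repeats, with IPC-deficient RNA in Cy5 on arrays 1 and 2 and in Cy3 on arrays 3, 4 and 5. The sources used here do not say whether the driver is active in chemosensory neurons, or which array held which repeat.

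The authors deposited a signed fold change that was the same on every array on which a probe had a value. Of 27376 features with at least 2 columns filled, 0 differed between columns. There is therefore 1 value per gene, with no spread between flies and no test, and values are given as log2 of the fold with its sign. Which RNA is the numerator of this fold is not recorded. A negative value is read here as lower in IPC-deficient flies, a reading that rests on the wording of the design and on tobi (target of brain insulin) at -4.10, and with the sign turned every direction would be the opposite. Ilp2, an insulin-like peptide of the ablated cells, stood at 0.01 from 4 of 10 possible spots and gave no check of the ablation. In whole-animal RNA, fewer cells of a type and less RNA per cell cannot be told apart.

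The first question was how well these rare transcripts were measured at all. Each probe was printed as 2 copies, so that 5 arrays gave at most 10 filled spots. The 120 chemoreceptor probes had a median of 5 filled spots, whereas the 12537 probes with 1 gene symbol had a median of 8. All 10 spots were filled for 3.33% of chemoreceptor probes and for 36.4% of all named probes. A value on every array was present for 32.5% of chemoreceptor probes and for 63.4% of all named probes. Probes with no filled spot were closer in share, at 8.33% and 6.40%.

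**Figure D1:**
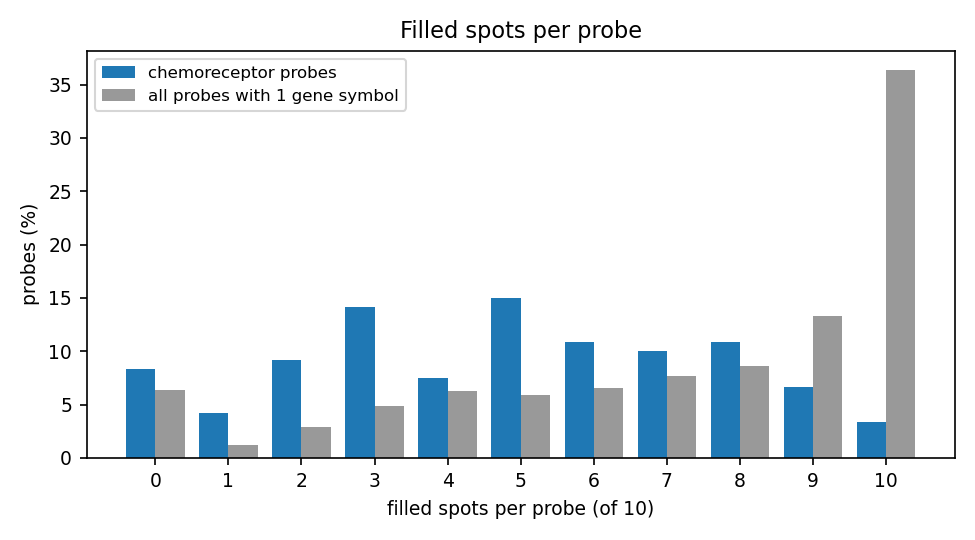
Share of probes in percent by the number of filled spots, of 10 possible, for the 120 chemoreceptor probes and for all 12537 probes with 1 gene symbol. Chemoreceptor probes are spread over the whole range with 3.33% at 10 spots, whereas 36.4% of all named probes stand at 10.

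The families differed in this measure. Or probes had a median of 4 filled spots and none of the 49 was filled in all 10. Gr probes had a median of 5 and Ir probes of 6. A value from every probe on all 5 arrays was present for 12 of 44 measured Or genes, 10 of 26 Gr genes and 17 of 36 Ir genes. The 11 measured Or genes known mainly from larval neurons had a median of 4 spots, and the 22 Or genes in neither this list nor those for the palp and trichoid sensilla had a median of 5. The number of the 120 probes with a filled spot was 98, 59, 106, 68 and 64 on arrays 1 to 5. Arrays 1 and 3, which have opposite dyes, also had the most features filled overall.

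Most receptor transcripts stood close to 0. The median over the 106 genes was -0.05, with quartiles at -0.18 and 0.06, against a median of -0.01 and quartiles at -0.12 and 0.11 for all 10125 measured genes. Of the 106, 65 were below 0 and 41 above, and of all measured genes 5250 were below 0 and 4875 above. A difference of 1.5-fold or more was positive for 4 genes and negative for 5, together 8.49% of them. Among all measured genes it was positive for 2.25% and negative for 3.11%, together 5.36%. The 97 genes within 1.5-fold ranged from -0.52 to 0.55.

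Among the receptors with a value from every probe on all 5 arrays, none reached 1.5-fold. These 39 genes ranged from -0.34 to 0.26, so the furthest was 1.26-fold from equality. The share of all such genes beyond 1.5-fold was 2.68%, and 39 genes are few against a background of that size. As a measure of error, different probes of 1 gene varied with an SD of 0.18 (647 genes, 1437 probes on all arrays). It says nothing of the spread among flies. Of the 39 receptors, 29 lay within this SD of 0 (74.4%), as did 72.4% of all 6564 genes on all arrays.

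The upper end of these 39 genes was held by Or23a at 0.26 and by Ir64a, a receptor for acids, at 0.24. Ir40a, a receptor for dry air, stood at 0.21, Or85d of the maxillary palp at 0.21 and Ir56b at 0.18. The co-receptor Ir25a stood at 0.17, the sugar receptor Gr61a at 0.08 and Or33a at 0.08. The lower end was held by Gr98d at -0.34, Gr58b at -0.30 and Gr59c at -0.22, 3 receptors of the bitter and avoidance list. Ir7c stood at -0.19, Ir7a at -0.18, Or43b at -0.18, Or22c at -0.18 and Ir11a at -0.15. The gap between both ends is of the size of a few SDs between probes, and the order of the genes was not tested.

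**Figure D2:**
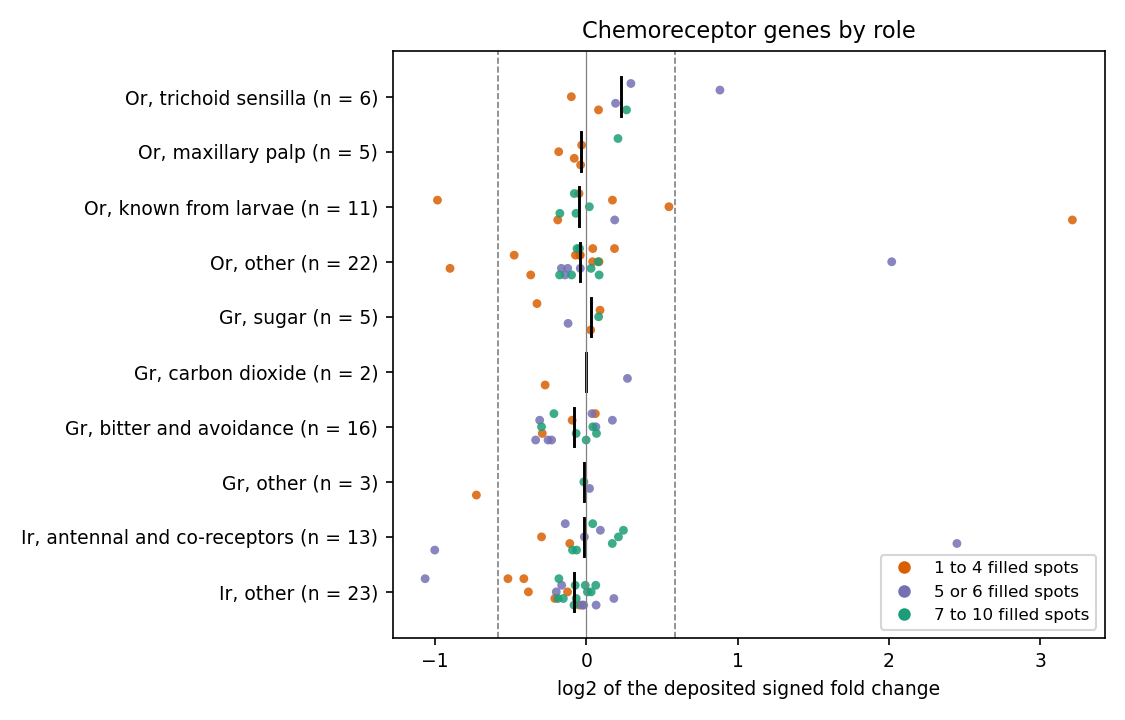
Log2 of the deposited signed fold change (horizontal axis) for the 106 measured receptor genes, grouped by role, with a black bar at each group's median, colour for filled spots and dashed lines at 1.5-fold. Points with 7 to 10 filled spots lie between -0.30 and 0.26, and the points beyond the dashed lines have 1 to 6.

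Co-receptors stand first by role, since many tuning receptors depend on them. Ir25a, the most widely used of them, stood at 0.17 from 8 of 10 spots. Ir76b, which works in amine, salt and amino acid sensing, stood at 0.09 from 5 spots. Ir93a, needed for temperature and humidity sensing, stood at -0.30, the median of probes at -0.48 and -0.11 with 2 spots each. Ir8a, the co-receptor of acid sensing, was apart from these at -1.003, a 2.005-fold difference from 5 spots. A further Ir8a probe had no filled spot, so this value has no second probe beside it.

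Of tuning receptors known to work with Ir8a, 3 are given as examples, chosen after their values were seen. Ir64a stood at 0.24 from 8 spots, Ir75c, a receptor for short-chain acids, at -0.07 from 9 spots and Ir84a, which senses food aromatics, at -0.14 from 6 spots. Receptors of humidity and temperature, which use Ir25a and Ir93a, lay on both sides of 0, with Ir40a at 0.21, Ir68a at 0.04 and Ir21a at -0.09, from 8 to 10 spots each. Ir76a, an amine receptor, stood at -0.01 and Ir75d at -0.11 from 2 spots. Ir92a, which senses ammonia and amines, had the highest Ir value, 2.45 or 5.46-fold, from 5 spots. Of the 13 measured genes of the antennal Ir list, 6 were above 0 and 7 below, with a median of -0.01.

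The other 23 Ir genes, most of them known from taste organs, were mostly below 0, 18 against 5, with a median of -0.08. Of all measured genes, 5250 of 10125 were below 0, and this lean was not tested. Only Ir87a lay beyond 1.5-fold, at -1.07 or 2.10-fold from 6 spots. Next to it stood Ir60a at -0.52, Ir52a at -0.41 and Ir7g at -0.38, from 3, 3 and 2 spots. Highest in the set was Ir56b at 0.18. With at least 5 spots, 17 of these genes remained, and their median was -0.07.

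The 44 measured odorant receptor genes centred on a median of -0.04. Of these, 19 were above 0 and 25 below. At 1.5-fold, 3 genes were positive and 2 negative, together 11.4%, against 5.36% of all measured genes. Of the 44, 22 had 4 or fewer filled spots, and of all genes so measured 13.9% lay beyond 1.5-fold. The list for trichoid sensilla, whose neurons respond largely to fly-derived odours, had 6 measured genes of 12 listed. Of these 6, 5 were above 0, against 4875 of all 10125 genes, and the median was 0.23. Only Or23a among them had a value on all 5 arrays. Or47b, tuned to fatty acid-derived odours of other flies, stood at 0.88 (1.84-fold) from 5 spots, Or83c, a farnesol receptor, at 0.29 and Or23a at 0.26. Or2a stood at 0.19 from 5 spots, Or88a at 0.08 from 3 spots and Or43a at -0.10 from 3 spots. With 6 genes and no replicate values, the median of this list was not tested.

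Maxillary palp receptors stood at a median of -0.04 over 5 genes, none beyond 1.5-fold, from Or59c at -0.18 to Or85d at 0.21. Only Or85d, with 7 spots, had more than 4. Some antennal receptors for food odours are given as examples, chosen after their values were seen. Or22a, a receptor for fruit esters, stood at 0.03 from 9 spots, Or59b, an acetate ester receptor, at -0.17 from 6 spots and Or85b at -0.12 from 6 spots. Or42b and Or92a, both receptors for vinegar odours, stood at 0.19 and -0.07 from 2 spots each, and Or56a, the geosmin receptor, at 0.04 from 3 spots.

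The 11 larval receptors held the widest range, from Or85c at -0.99 (2 spots) to Or45b at 3.21 (1 spot). Those with 8 or 9 spots, Or24a, Or63a, Or94a and Or22c, stood at 0.02, -0.07, -0.08 and -0.18. Or74a was just inside 1.5-fold at 0.55 (1.46-fold) from 2 spots. Among the remaining Or genes, Or49a, a receptor for the odour of parasitoid wasps, stood at 2.02 (4.05-fold) from 6 spots, and Or47a, an ester receptor, at -0.90 (1.87-fold) from 4 spots. Or49b and Or7a followed at -0.48 and -0.37, from 3 spots each.

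Gustatory receptors had the narrowest full range of the families, from -0.73 to 0.27, but the widest span between quartiles, from -0.27 to 0.05. Of 26 genes, only Gr10b lay beyond 1.5-fold, at -0.73 (1.66-fold) from 1 spot, and the family median was -0.04. Sugar receptors had a median of 0.03 over 5 genes. Gr5a, the trehalose receptor, stood at -0.12 from 6 spots, Gr61a at 0.08 from all 10 and Gr43a, a fructose receptor that also works in the brain, at 0.03 from 3 spots. Gr64c stood at 0.09 from 4 spots, and Gr64f, a co-receptor of sugar sensing, at -0.33 from 1 spot.

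The carbon dioxide receptor is formed by Gr21a and Gr63a together, and their values had opposite signs, -0.27 from 3 spots and 0.27 from 5 spots. Of 16 measured receptors listed for bitter and other avoided compounds, 10 were below 0 and 6 above, with a median of -0.08. Gr66a, present in most bitter neurons, stood at -0.0024 from 9 spots and Gr32a at 0.04 from all 10, whereas Gr33a, also widely present in bitter neurons, stood at -0.31 from 5 spots. Gr93a, needed to taste caffeine, was highest in the list at 0.17. Gr28a and Gr28b, genes next to each other, stood at -0.25 and -0.29, from 5 and 2 spots.

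The 9 receptors beyond 1.5-fold had 1 to 6 filled spots. With 1 to 4 spots, 4 of 38 receptors lay beyond 1.5-fold (10.5%, against 13.9% of all genes so measured). With 5 or 6 spots it was 5 of 31 (16.1% against 6.73%), and with 7 or more it was 0 of 37 (0% against 3.44%). Receptors with 1 to 4 spots were below 0 in 71.1% of cases and all genes so measured in 59.1%. The 37 receptors with 7 or more spots had a median of -0.02, and 21 of them were below 0.

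**Figure D3:**
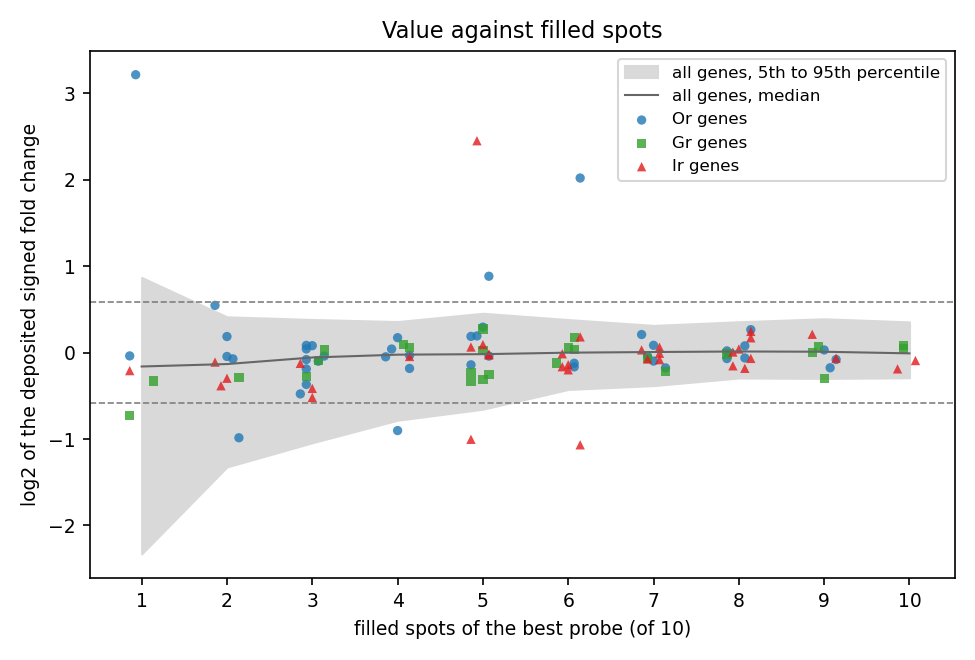
Log2 value of each measured Or, Gr and Ir gene (vertical axis) against the filled spots of its best probe, of 10 (horizontal axis), over the 5th to 95th percentile and the median of all genes with that number of spots. Receptors beyond the dashed 1.5-fold lines have 1 to 6 spots, and the grey band of all genes is widest at 1 spot, from -2.33 to 0.87.

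How far a value from few spots can be off was read from genes with another probe on all 5 arrays. A probe with 1 to 4 spots differed from that other probe by a median of 0.42, and by more than 1.5-fold in 41.9% of 329 probes. With 5 or 6 spots the median difference was 0.17, and 12.1% of 199 probes differed by more than 1.5-fold. With all 10 spots it was 0.10, and 1.83% of 876 probes did. All 9 receptors beyond 1.5-fold were measured by 1 filled probe each, so none could be set against a second probe.

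None of the 9 receptors was filled on all 5 arrays. Ir92a and Ir8a each had 2 spots on array 1, 2 on array 3 and 1 on array 5. Or49a had 1, 1, 2, 0 and 2 spots on arrays 1 to 5, Ir87a had 2, 1, 2, 0 and 1, and Or47b had 2, 1, 2, 0 and 0. Or47a had 1, 0, 2, 1 and 0 spots, and Or85c 1, 0, 1, 0 and 0. Or45b and Gr10b rested on 1 spot of array 3. Thus array 3 held all 9, array 1 held 7, array 5 held 4, array 2 held 3 and array 4 held 1. Among all 106 receptors, arrays 1 to 5 held 95, 59, 102, 68 and 63, and the part of the missing spots in these values was not tested.

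**Figure D4:**
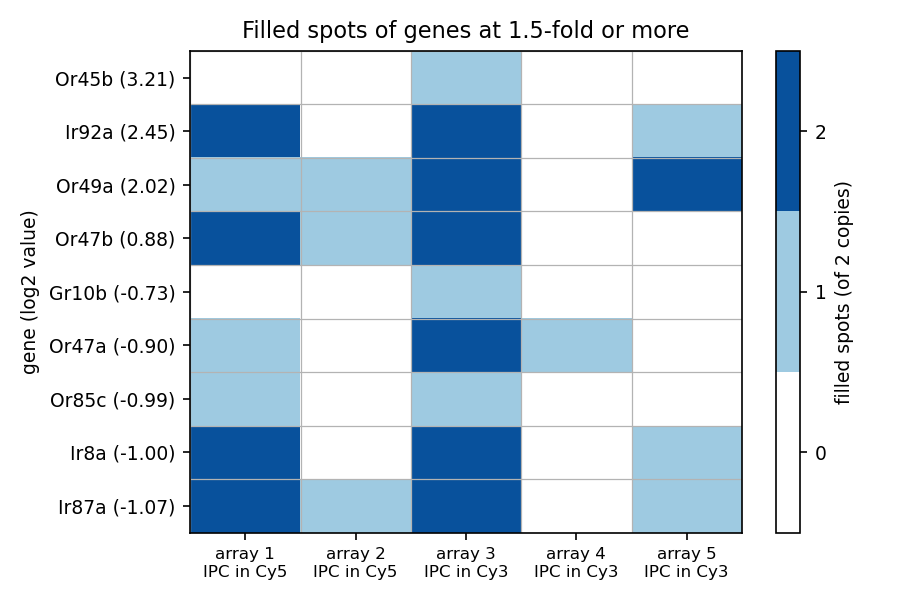
Filled spots, of 2 copies, on each array (columns, with the dye of the IPC-deficient RNA) for the 9 receptor genes at 1.5-fold or more (rows, with their log2 value). Array 3 is filled for all 9, and array 4 only for Or47a.

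Places on the array were also compared. Within 2 spots in each direction, Or49a had 22 probes with a value, Ir87a 22, Ir8a 24 and Or47a 14, and none of these lay beyond 1.5-fold. For Ir92a, Or47b and Or45b, 1 nearby probe lay beyond 1.5-fold on the same side, of 15, 24 and 22. Gr10b had 4 such neighbours of 17, and Or85c had 1 of 23. On the opposite side, Or45b and Or85c had 2 neighbours beyond 1.5-fold each, Ir92a had 1, and Or47b and Gr10b had 0. The part of array position in these values was not tested.

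Many receptor genes lie in the genome as tandem copies. Among the measured receptors, 14 pairs had at most 1 protein-coding gene between them. Not all are tandem copies, since Or67a with Ir67a, Gr8a with Ir8a and Gr10b with Or10a join different families. The values of a pair had the same sign in 8 of 14 and differed by a median of 0.17. Of the 4 pairs with at least 5 spots for both genes, Gr8a with Ir8a among them, 1 had the same sign, and the median difference was 0.23. Or33b and Or33c stood at -0.04 each, from 3 spots and 1 spot. Or59b and Or59c stood at -0.17 and -0.18, from 6 and 4 spots, and Ir94g and Ir94h at -0.07 and -0.13, from 8 and 3. Or94a and Or94b stood at -0.08 and 0.19, from 9 and 5 spots. In the pair of Or85b and Or85c only Or85c, from 2 spots, was far from 0. Gr8a and Ir8a, which are unrelated but close in the genome, stood at 0.06 and -1.003. Related receptors can cross-hybridise on a spotted probe, and the part of this in the values was not tested.

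Genes that work beside the receptors were read from lists drawn up for this purpose. The olfactory accessory list had 13 measured genes, of which 9 had positive and 4 negative values. Its median was 0.14, and the arrestins Arr2 and Arr1, at 1.28 and 0.70, were beyond 1.5-fold. Both arrestins also act in photoreceptors. The mechanosensory gene stum stood at 0.31, with a probe filled on only 2 arrays. Snmp1, a membrane protein of pheromone sensing, stood at 0.07 from 7 spots, and lush, an odorant-binding protein of trichoid sensilla, at 0.06 from 9 spots. Below 0 stood a5 at -0.16 from 7 spots, Cyp6w1 at -0.15 from 10, Amt at -0.11 from 5 and a10 at -0.09 from 3. Of 11 transduction genes none reached 1.5-fold and the median was -0.02, with unc79, a regulator of a sodium leak channel, at -0.56, the eye G protein subunit Gbeta76C at -0.55 and Galphas at 0.22. Of 7 transcription factors of sensory neurons none reached 1.5-fold and the median was 0.03, with onecut at 0.29, amos at -0.19, lz at -0.14 and acj6, which selects odorant receptors, at -0.03.

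Odorant-binding protein genes, also chosen by name alone, are given here beside the receptors. Some are made by support cells around sensory neurons, but where each was made in these whole flies is not known from the data. Positive values were found for 23 of 31 measured binding protein genes, against 4875 of all 10125 genes. The median of the binding protein genes was 0.10. At 1.5-fold, 5 of them were positive and 1 was negative, against 2.25% and 3.11% of all genes. Over genes on all 5 arrays it was 5 of 18, against 0 of 39 receptors and 2.68% of all genes. These are counts beside each other, and the difference was not tested.

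Markers of other cell types give the setting of these values. For the 10 measured neuron markers the median was 0.08, and none reached 1.5-fold. Positive values were held by 6 of them, among these the synaptic gene nSyb at 0.48, nrv3 at 0.45 and VAChT at 0.22. The other 4 were negative, with Gad1 at -0.27 from 3 spots and Csp at -0.08 from 10. Glia markers had a median of -0.05 over 5 genes, with Gs2 at 0.55, nrv2 at 0.38 and alrm at -0.29. Each of the 6 measured photoreceptor markers, of 10 listed, was positive (median 0.36), Arr2 and Arr1 leading and chp at 0.38. The eye G protein subunit Gbeta76C, placed in the transduction list instead, was negative at -0.55 from 6 spots. Midgut markers had a median of 0.73 over 7 genes, with Amy-p at 1.41, Jon25Biii at 0.79 and Mal-A1 at 0.73. Transcripts of the male accessory gland, although all flies are labelled female, were filled in 3 to 8 spots for 5 genes and had a median of -0.87. The 2 of them with at least 5 spots, SP at -0.47 and Acp26Aa at -0.42, had a median of -0.44, and neither reached 1.5-fold. The table holds no expression level, and the part of these tissues in the receptor values was not tested.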

How the data were processed

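The authors deposited 1 signed fold change score per feature, and the design text says that both spot copies, all hybridisations and 3 scans per array entered the normalization. The sources used here do not give the background correction, the kind of normalization or the reason a cell is empty. The 32448 features formed 16224 probes of 2 copies. Each score was turned into log2 of its size with its sign kept. Probes were named from a platform annotation dated 2007, updated by Entrez identifier or accession from RefSeq's Release 6 gene list, and all 120 chemoreceptor probes matched. Probes of a gene were joined by their median, with values equal to 5 decimals taken once, and genes with 4 or fewer filled spots are marked by their spots. The threshold was 1.5-fold. A limma model, planned in case the columns differed, could not be used, since they are identical. Coordinates are left out, as the arrays name no build.

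The receptors and the lists were chosen with earlier results of these data known. Genes named by rule were the co-receptors, 7 well-known receptors (Gr5a, Gr21a, Gr63a, Gr43a, Gr66a, Gr64f and Or67d), every receptor beyond 1.5-fold, the 8 highest and 8 lowest on all 5 arrays, and up to 3 genes of each other list furthest from 0 with at least 5 spots. Other receptors are named to show their role, and were chosen after their values were seen. The joining of spot copies to probes was run on simulated data in which all copies of a probe held the same value. It checked the computation only, and the joining of several probes to 1 gene was not tested. The flies came from only 2 biological repeats, merged into 1 value per probe, and this limits the precision. Python 3.11.15, numpy 2.4.6, pandas 2.3.3 and matplotlib 3.10.9 were used.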

Additional observations from a re-analysis of the deposited data

How the results depend on the processing

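With at least 5 spots, 3 positive and 2 negative receptors of 68 lay beyond 1.5-fold, against 2.06% and 1.27% of all genes. With probes on all 5 arrays (39 genes) or at least 7 spots (37 genes, chosen after seeing the data), 0 lay beyond 1.5-fold on either side, and the cause was not tested. All genes stood beyond it in 1.98% and 0.706% (all arrays) or 1.97% and 0.721% (7 spots) of cases, positive and negative. At 2-fold it was 3 positive and 2 negative, against 0.711% and 1.45% of all genes. With the sign turned, the median was 0.0458 (as reported, -0.0458) and the counts were 5 positive and 4 negative. Leaving out each array in turn gave 3 to 4 positive and 4 to 5 negative genes, and medians of -0.0458 to -0.0456. The lower counts came without array 3, where Or45b and Gr10b lost their only spot. Because the deposited value is already combined, leaving out an array removes probes and does not recompute a value. Centring the columns, other ways of joining probes, the annotation's own symbols and probes filled in both dye orientations (added after seeing the data) kept the positive count at 3 or 4 and the negative count at 4 or 5. No paired analysis was possible because each probe has 1 combined value and all arrays form 1 group. The number of filled spots limits these values, as 38 of 106 receptors had 4 or fewer.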

Other observations

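Other channels of taste and contact sensing were read from a list of pickpocket and TRP channels and CheA and CheB genes. Of 11 measured genes, 5 were above 0 and 6 below, with a median of -0.12. Only nan, a TRP channel of hearing, lay beyond 1.5-fold, at 0.65 from 4 spots. CheA75a stood at -0.54 from 9 spots, pain at 0.32 from 5 and trpl, which is also a photoreceptor channel, at 0.26 from all 10. The pheromone-sensing channel gene ppk23 stood at -0.15 from 8 spots and the water receptor ppk28 at -0.12 from 3 spots.

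Receptor values by chromosome arm had medians of 0.02 over 18 genes on 2L, -0.08 over 28 on 2R, -0.01 over 20 on 3L, -0.06 over 24 on 3R and -0.17 over 16 on the X. Some of the X genes rest on few spots, such as Gr10b on 1 and Ir7g on 2. Medians of all genes by arm are not given here, and the differences between arms were not tested.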
